A study of Mus musculus with 6 samples.

Results

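The 10 genes described here bind, store, move or release metals in the cell: the metallothioneins Mt1, Mt2 and Mt3, the ferritin subunits Fth1 and Ftl1, the iron importers Tfrc and Slc11a2, the iron exporter Slc40a1 with its ferroxidase partner Cp, and the heme-degrading enzyme Hmox1. They were taken by gene symbol from a table of 54532 genes, in which each symbol has 1 row. Total RNA of spinal cord was sequenced from C57BL/6J mice after spinal cord injury. The trained group (3 libraries) received rotarod training, walking on a turning rod, and the untrained group (3 libraries) did not. All 6 libraries are labelled day 28, counted from training, and the design asks how training after injury alters expression. All animals were injured, so the comparison holds no uninjured cord. The sources used here give neither the site and type of the injury nor the age and sex of the mice. They also do not say whether each library is a separate mouse, so that the p-values speak of the spread between these libraries, which could be technical.

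Free iron drives the formation of reactive oxygen species, and cells hold it in ferritin, a shell of heavy chains, which oxidise iron, and light chains, which help to build the iron core. Bleeding into the injured cord brings heme, which Hmox1 breaks down to iron, biliverdin and carbon monoxide. Iron regulatory proteins bind hairpins called iron responsive elements when iron is low: in a 5′ UTR they block translation, as for ferritin and Slc40a1, and in the 3′ UTR of Tfrc they protect the transcript from decay. Metallothioneins are small cysteine-rich proteins that bind zinc and copper. Mt1 and Mt2 are induced by zinc, glucocorticoids and inflammation through most of the body, and Mt3 belongs to the nervous system.

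The hairpins are printed here because a search for them found matches in 4 of the members. The search asked for a C, 5 bases, the loop CAGTGN with any last base but G, and 5 bases that pair with the first 5, and it used the GENCODE M21 transcripts (GRCm38). Capitals mark the loop. The first 3 lie in 5′ UTRs, at chr19:9982733-9982759 (plus strand), chr7:45459780-45459806 (minus strand) and chr1:45925466-45925492 (minus strand). The last 4 lie in the 3′ UTR of Tfrc on the plus strand, at chr16:32631220-32631246, chr16:32631599-32631625, chr16:32631664-32631690 and chr16:32631711-32631737.
Fth1: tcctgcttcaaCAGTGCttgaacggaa
Ftl1: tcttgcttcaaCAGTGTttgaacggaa
Slc40a1: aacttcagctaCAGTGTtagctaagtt
Tfrc, site 1: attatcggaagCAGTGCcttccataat
Tfrc, site 2: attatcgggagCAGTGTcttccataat
Tfrc, site 3: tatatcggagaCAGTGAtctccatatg
Tfrc, site 4: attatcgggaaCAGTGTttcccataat

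Of 21877 genes with coding transcripts, 23 (0.105%) had such a match in a 5′ UTR and 100 (0.457%) in a 3′ UTR, and Tfrc was the only gene of these with 4 or more in its 3′ UTR. The other 6 members had no match to this pattern in either UTR, which says only that these letters were not found there. A hairpin with an extra or unpaired base among the 5 pairs would be missed, so these members may still hold such elements. The bound state of these hairpins was not measured.

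For the metallothioneins, the promoters of Mt1 and Mt2 are shown because both genes, neighbours on chromosome 8, are known targets of the zinc sensor MTF1, which binds the metal response element, while their counts lay far apart. Each sequence is the 250 bases before the RefSeq start site (GRCm38.p6, plus strand), chr8:94178839-94179088 for Mt1 and chr8:94172368-94172617 for Mt2. Capitals mark matches to TGCACNC or TGCGCNC on either strand.
Mt1: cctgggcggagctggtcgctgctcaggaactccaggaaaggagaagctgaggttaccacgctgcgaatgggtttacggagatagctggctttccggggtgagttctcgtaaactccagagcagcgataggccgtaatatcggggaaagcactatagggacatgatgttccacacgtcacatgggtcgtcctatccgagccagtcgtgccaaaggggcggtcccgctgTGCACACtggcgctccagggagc
Mt2: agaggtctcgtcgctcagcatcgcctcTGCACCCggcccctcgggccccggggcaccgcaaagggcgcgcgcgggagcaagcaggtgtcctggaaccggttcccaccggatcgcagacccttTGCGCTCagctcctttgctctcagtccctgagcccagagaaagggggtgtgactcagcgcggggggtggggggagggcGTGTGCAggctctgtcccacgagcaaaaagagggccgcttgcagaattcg

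With the 50 bases after the start site included, the window of Mt1 held 3 matches, that of Mt2 held 4 and that of Mt3 held 1. Among 32851 RefSeq windows of this length, 25.7% held at least 1 match, 1.97% at least 3 and 0.518% at least 4. The window of Tfrc held 2 matches that overlap each other, and those of Fth1, Ftl1 and Cp held 0. The core TGACNNNGC of the antioxidant response element, bound by NRF2, was found only in the window of Mt2 (1 match, against 12.4% of all windows with at least 1), and did not overlap the metal response matches. RefSeq windows were matched for 7 of the 10 members (not for Slc40a1, Slc11a2 and Hmox1). All match counts hold for windows placed by the RefSeq start site, and bases beyond these windows were not searched. Whether transcription starts at that site in these libraries was not tested. The windows of Mt1 and Mt2 may therefore miss parts of their promoters, and their match counts do not compare the full promoters.

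Total counts ran from 15814104 to 26092014 per library, so that 3 counts, the floor for an undetected gene, equal 0.116 to 0.192 CPM (the usual library-scaled read count, here with TMM factors). All 10 members had counts far above this floor and passed the filter on low counts. No gene of the lists of neuron, astrocyte, oligodendrocyte or microglia markers was at 0 in all libraries. In trained replicate 1 the summed CPM of the meningeal fibroblast list was 102, against 293 to 615 in the other 5 libraries, and that of the Schwann cell list was 202, against 640 to 1036. In these bulk samples fewer cells of a type and less RNA per cell cannot be told apart.

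Between trained and untrained cord none of the 10 members passed the quasi-likelihood test of edgeR after Benjamini-Hochberg adjustment over all genes (threshold 0.05), where 10 of 16909 genes (0.0591%) passed. That number of genes was 4 without trained replicate 2, 21 when trained replicate 1 was left out and 221 when trained replicate 3 was. Fth1 had the smallest p of the members and was 1.28-fold higher in trained cord, and Cp, at 0.772-fold, had the largest difference in the other direction with a far wider error. At an unadjusted p below 0.05, 1 of the 10 members was higher (Fth1), against 4.47% of all genes tested, and 0 were lower, against 5.55%. The groups did not overlap in 2 of the 10 (Fth1 higher, Slc11a2 lower), against 16.8% of all genes tested. With 10 members these counts lie near the background. The log2 fold changes were positive for 5 members and negative for 5, with a median of -0.0098, against -0.0080 for all genes. limma-voom also called 0 of the 10. DESeq2, which called 92 of 30350 genes, called 1 of the 10, Fth1.

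**Figure D1:**
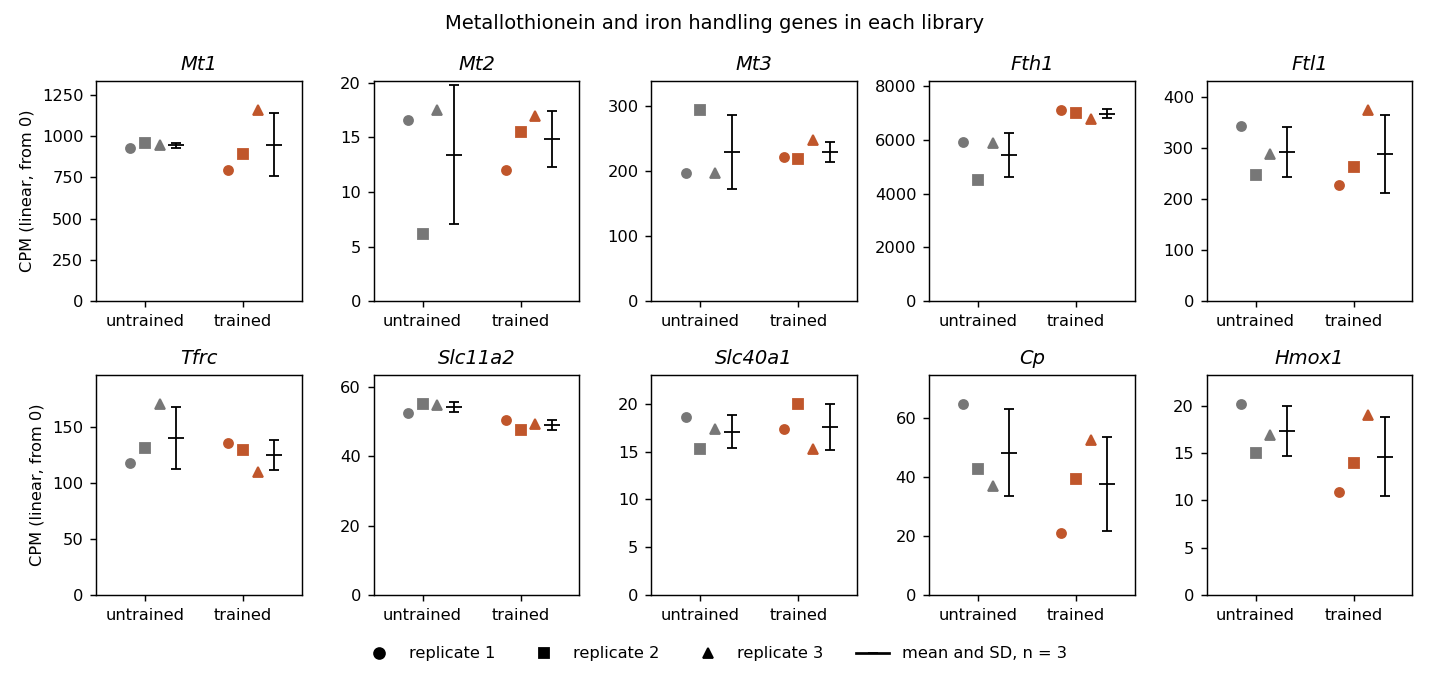
CPM of each member in the 3 untrained (grey) and 3 trained (orange) libraries on linear axes that start at 0. Symbols give the replicate number, and the bars give the mean and SD of each group. The trained points of Fth1 (6785 to 7113 CPM) lie above and those of Slc11a2 (47.4 to 50.4 CPM) below every untrained point, and the groups overlap in the other 8 genes.

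Fth1 (ENSMUSG00000024661), the ferritin heavy chain, spans bases 9982703 to 9985092 of chromosome 19 and was the most abundant member. Trained replicates 1, 2 and 3 held 7113, 6991 and 6785 CPM of it, and untrained replicates 1, 2 and 3 held 5922, 4502 and 5889 CPM. All trained libraries lay above all untrained ones, and the trained ones lay closer together (6963 ± 166 against 5438 ± 811 CPM, mean ± SD, n = 3 per group). The log2 fold change was 0.36 ± 0.11 (SE), a fold of 1.28 with a 95% interval of 1.09 to 1.5, and the adjusted p was 0.317 in edgeR. By p-value the gene ranked 301 of the 16909 tested. Untrained replicate 2 was the lowest library. Without it the log2 fold change was 0.24 (edgeR adjusted p = 0.578). The call depends on the tool: DESeq2 gave an adjusted p of 0.0317 and edgeR with no filter on low counts 0.0205, while the other alternatives ran from 0.113 to 0.700. More genes passed in the fits that called it: 92 of 30350 in DESeq2 and 276 of 30362 with no filter. In the fit reported 10 of 16909 passed.

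Oligodendrocytes are known as iron-rich cells that hold much ferritin. The 8 oligodendrocyte markers summed to 37865 to 42512 CPM in trained and 33481 to 38593 CPM in untrained libraries. These ranges overlap. The log2 fold change was positive for 6 of the 8 genes, and 0 passed (edgeR, 0 at an unadjusted p below 0.05, 0 in DESeq2 and limma-voom). Mbp, myelin basic protein, was at 20522 to 23134 CPM in trained and 18072 to 20254 CPM in untrained libraries, the only gene of the list whose groups did not overlap (log2 fold change 0.18 ± 0.09, SE, edgeR adjusted p = 0.537). Markers with lower sums in all trained than in all untrained libraries were those of endothelial cells (399 to 463 against 465 to 554 CPM, median log2 fold change of 7 genes -0.18). Neutrophil markers were higher in all trained libraries (31.9 to 66.2 against 15.2 to 23.4 CPM). None of the 7 endothelial and none of the 8 neutrophil genes passed in edgeR, where 3 and 7 of them had an unadjusted p below 0.05, and limma-voom also called 0 of both. At that p, 4.47% of all genes tested were higher and 5.55% lower, and in 16.8% the groups did not overlap. DESeq2 called 0 of the endothelial and 4 of the neutrophil genes. The part of these markers in the difference of Fth1 was not tested.

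Ftl1 (ENSMUSG00000050708, chromosome 7, bases 45457944 to 45459884), the ferritin light chain, showed no such separation. Trained replicates 1, 2 and 3 held 229, 262 and 375 CPM, and the untrained ones held 344, 247 and 288 CPM. The trained group held both the lowest and the highest library. Its log2 fold change was -0.021 ± 0.23 (SE) with a 95% interval of the fold of 0.662 to 1.47 (edgeR adjusted p = 0.985), and its sign turned when trained replicate 1 (0.12) or 2 (0.043), or untrained replicate 1 (0.12), was left out. With upper-quartile scaling it was at 0.0061.

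The level of Ftl1 itself is uncertain. Of all 50-base words of its longest coding transcript 90.6% also occur in transcripts of 17 other annotated genes, the copy Ftl1-ps1 among them, whereas for Fth1 the share was 4.01% and involved 1 other gene. Ftl1-ps1 held 432 counts over the 6 libraries, against 4107 to 6291 counts of Ftl1 in each library. How the authors counted reads that match several places is nowhere stated in the sources used here. The ratio of Fth1 to Ftl1 counts therefore compares libraries, not chains: it was 31.1, 26.6 and 18.1 in trained replicates 1, 2 and 3 and 17.2, 18.2 and 20.4 in the untrained ones. Trained replicates 1 and 2 stood above the other 4 libraries, and trained replicate 3 lay among the untrained ones. The mean log2 ratio was 0.41 higher in trained cord (two-sided exact permutation test, p = 0.3, n = 3 per group, adjusted p = 0.6 over the 4 ratios examined). With 3 against 3 libraries the test cannot go below 0.1.

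The importers were both at lower mean levels in trained cord, and neither passed the test. Slc11a2 (ENSMUSG00000023030, chromosome 15, bases 100387898 to 100425072) encodes DMT1, which carries divalent iron into cells and out of endosomes. It was at 50.4, 47.4 and 49.2 CPM in the trained and 52.5, 55.2 and 54.8 CPM in the untrained replicates 1, 2 and 3. This was the least variable member, and the groups were apart by a narrow gap. Trained over untrained, the log2 fold change was -0.14 ± 0.07 (SE), a fold of 0.905 with a 95% interval of 0.814 to 1.01 (edgeR adjusted p = 0.518), and it ran from -0.17 to -0.12 when any library was left out.

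Tfrc (ENSMUSG00000022797, chromosome 16, bases 32608920 to 32632794), the receptor that takes up transferrin-bound iron, was at 136, 130 and 110 CPM in the trained and 118, 132 and 171 CPM in the untrained replicates 1, 2 and 3. The groups overlapped, and untrained replicate 3 stood highest. The log2 fold change was -0.17 ± 0.14 (SE), with a 95% interval of the fold of 0.706 to 1.13 (edgeR adjusted p = 0.753). Without untrained replicate 3 it was 0.0020, and without trained replicate 3 it was -0.061.

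Ferritin and the transferrin receptor are the classic pair that iron regulatory proteins move in opposite directions, the first by translation and the second by RNA decay. The ratio of Tfrc to Fth1 counts was 0.0191, 0.0186 and 0.0162 in trained replicates 1, 2 and 3 and 0.0200, 0.0293 and 0.0291 in the untrained ones. All trained libraries lay below all untrained ones, with untrained replicate 1 closest to them. The mean log2 ratio was -5.80 ± 0.13 in trained and -5.28 ± 0.32 in untrained cord (SD), a difference of -0.52 (two-sided exact permutation test, p = 0.1, n = 3 per group, adjusted p = 0.4 over the 4 ratios). This is the smallest p the design allows, and the ratio contains the Fth1 values given above.

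**Figure D2:**
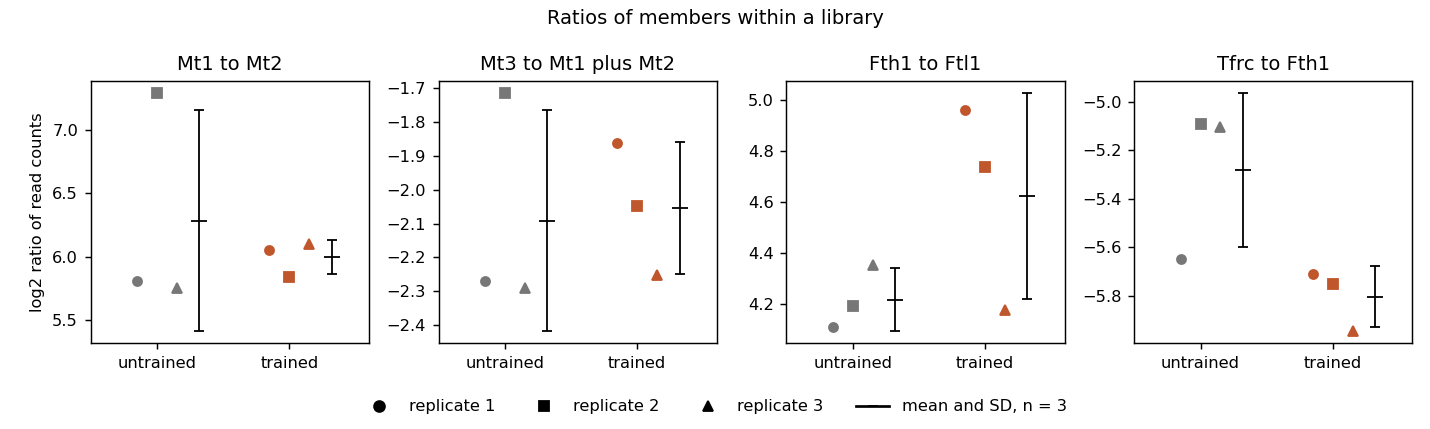
Log2 ratios of read counts within each library for Mt1 to Mt2, Mt3 to the sum of Mt1 and Mt2, Fth1 to Ftl1 and Tfrc to Fth1, with the mean and SD of each group (n = 3). The groups do not overlap in the last ratio, where trained libraries lie at -5.95 to -5.71 and untrained ones at -5.65 to -5.09, and untrained replicate 2 stands apart at 7.29 in the first.

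By the table's gene length, the export side had the 2 members of lowest level per length. Slc40a1 (ENSMUSG00000025993, chromosome 1, bases 45908068 to 45926523) encodes ferroportin, the iron exporter of vertebrate cells. It was at 17.3, 20.0 and 15.3 CPM in the trained and 18.6, 15.3 and 17.4 CPM in the untrained replicates. The groups covered nearly the same range, and the log2 fold change was 0.037 ± 0.13 (SE), with a 95% interval of the fold of 0.847 to 1.24 (edgeR adjusted p = 0.950). It turned sign without trained replicate 2 (-0.065) or untrained replicate 2 (-0.039).

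Cp (ENSMUSG00000003617, chromosome 3, bases 19957054 to 20009145), ceruloplasmin, is a copper-bearing ferroxidase that oxidises the iron leaving through ferroportin, and astrocytes and meningeal cells carry a membrane-bound form. It was at 21, 39.2 and 52.5 CPM in the trained and 64.7, 42.8 and 36.8 CPM in the untrained replicates 1, 2 and 3. The libraries ran over a wide range, and the groups overlapped. At -0.37 ± 0.44 (SE) the log2 fold change was the most negative of the 10 members, with a 95% interval of the fold of 0.339 to 1.76 (edgeR adjusted p = 0.828). Without trained replicate 1 it was -0.073 and without untrained replicate 1 -0.090, so these 2 libraries carried most of the difference, and without trained replicate 3 it was -0.68. The summed meningeal fibroblast markers were at 102, 550 and 615 CPM in the trained and 526, 298 and 293 CPM in the untrained replicates 1, 2 and 3. The summed astrocyte markers were at 10158, 9102 and 11078 CPM in the trained and 10366, 10518 and 10100 CPM in the untrained ones. The part of either cell type in the Cp values was not tested.

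Hmox1 (ENSMUSG00000005413, chromosome 8, bases 75093621 to 75100589), heme oxygenase 1, was at 10.8, 14.0 and 19.1 CPM in the trained and 20.2, 15 and 16.9 CPM in the untrained replicates 1, 2 and 3. Trained replicate 1 was lowest and untrained replicate 1 highest, as for Cp, and the groups overlapped. Hmox1 had a log2 fold change of -0.26 ± 0.20 (SE), with a 95% interval of the fold of 0.611 to 1.14 (edgeR adjusted p = 0.712). It moved to -0.48 without trained replicate 3. Leaving out trained replicate 1 gave -0.074, and leaving out untrained replicate 1 gave -0.12.

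Microglia and macrophages are a known source of Hmox1 in injured tissue. The 12 microglia and macrophage markers summed to 1065, 1122 and 1730 CPM in trained replicates 1, 2 and 3 and to 1685, 1410 and 1442 CPM in the untrained ones. Trained replicate 1 was the lowest library in this sum, as in Mt1, Ftl1, Cp and Hmox1, and trained replicate 3 the highest, as in Mt1 and Ftl1. The log2 fold change was negative for all 12 markers, from -0.63 to -0.0078 with a median of -0.16. Of these markers 0 passed (edgeR, 1 at an unadjusted p below 0.05, 0 in DESeq2 and limma-voom). Heme from red cells is the substrate of Hmox1. The 7 red cell markers summed to 63.0, 151 and 148 CPM in the trained and 70.7, 66.7 and 38.5 CPM in the untrained replicates 1, 2 and 3. These groups overlap, since trained replicate 1 lay below untrained replicates 1 and 2. The log2 fold change was positive for all 6 red cell genes tested (median 0.96). In 1 of these 6, the hemoglobin gene Hba-a1, the groups did not overlap, by a narrow gap. It was at 28.0, 62.6 and 70.8 CPM in the trained and 27.4, 26.1 and 15.2 CPM in the untrained replicates (edgeR adjusted p = 0.515). Of the 6 genes 0 passed in edgeR, DESeq2 or limma-voom. The 1 gene at an unadjusted edgeR p below 0.05 was another, Slc4a1, whose groups overlapped. Of all genes tested, 4.47% were higher and 5.55% lower at that p, and 16.8% had groups that did not overlap. The part of cell composition in these values was not tested.

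**Figure D3:**
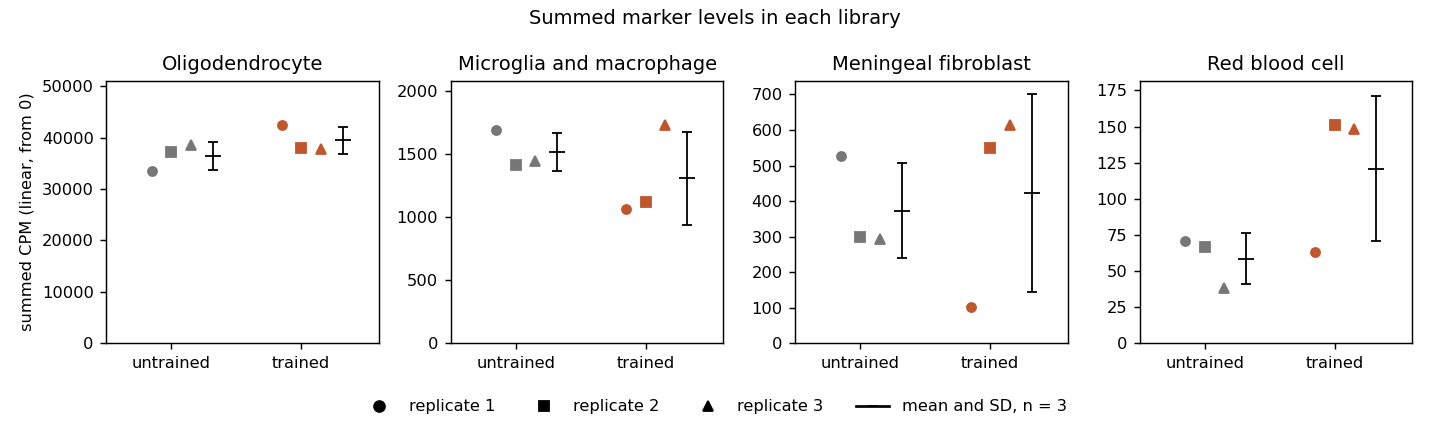
Summed CPM of the oligodendrocyte (8 genes), microglia and macrophage (12), meningeal fibroblast (6) and red blood cell (7) markers in each library, on linear axes that start at 0, with the mean and SD of each group (n = 3). Trained replicate 1 is the lowest library for microglia (1065) and meningeal fibroblasts (102), and trained replicates 2 and 3 are the highest for red cells (151 and 148).

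The metallothioneins differed little between the groups on average. Mt1 (ENSMUSG00000031765, chromosome 8, bases 94179082 to 94180327) had 794, 889 and 1160 CPM in trained replicates 1, 2 and 3, beside 930, 958 and 945 CPM in the untrained ones. The untrained libraries lay close together (944 ± 13.9, SD, n = 3), and the trained ones lay on both sides of them (948 ± 190). Its log2 fold change was 0.0048 ± 0.12 (SE), with a 95% interval of the fold of 0.834 to 1.21 (edgeR adjusted p = 0.995). Without trained replicate 3, the highest, it was -0.15 (edgeR adjusted p = 0.378), and it was -0.014 with a replicate block and -0.011 in limma-voom.

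Mt3 (ENSMUSG00000031760, chromosome 8, bases 94152607 to 94154146), known as growth inhibitory factor of the brain, was at 222, 219 and 247 CPM in the trained and 196, 294 and 197 CPM in the untrained replicates 1, 2 and 3. Untrained replicate 2 was highest, and the other 5 libraries spanned 196 to 247. The log2 fold change was 0.0017 ± 0.17 (SE), with a 95% interval of the fold of 0.759 to 1.32 (edgeR adjusted p = 0.999). It was 0.22 without untrained replicate 2, and negative when trained replicate 3 (-0.036), or untrained replicate 1 (-0.091) or 3 (-0.096), was left out. Mt4, the family member of stratified epithelia, had 0 counts in all 6 libraries, which allows up to 0.116 to 0.192 CPM per library by counting error alone.

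Mt2 (ENSMUSG00000031762, chromosome 8, bases 94172664 to 94173568) was at 12, 15.5 and 16.9 CPM in the trained and 16.6, 6.13 and 17.5 CPM in the untrained replicates 1, 2 and 3. Untrained replicate 2 had 102 counts, against 251 to 309 in the other 5 libraries. The log2 fold change was 0.14 ± 0.43 (SE), with a 95% interval of the fold of 0.510 to 2.37 (edgeR adjusted p = 0.949), the widest interval of the 3 metallothioneins, and without untrained replicate 2 it was -0.21. Mt1 exceeded Mt2 by 66.4, 57.3 and 68.4 times in counts in the trained and by 56.0, 156 and 54.0 times in the untrained replicates 1, 2 and 3. The library with the low Mt2 count was the library with the highest Mt3 and no lower Mt1. The log2 ratio of Mt1 to Mt2 differed by -0.29 between the groups (exact permutation p = 1, n = 3 per group, adjusted p = 1) and by 0.22 without untrained replicate 2. That of Mt3 to the sum of Mt1 and Mt2 differed by 0.038 (exact permutation p = 0.8, n = 3 per group, adjusted p = 1), and turned sign when trained replicate 1 (-0.058), or untrained replicate 1 (-0.051) or 3 (-0.061), was left out.

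The low counts of Mt2 cannot be read as a level. In GENCODE M21, 432 of the 588 exonic bases of Mt2 (73.5%) lie under the exon of Gm45774, an antisense gene on the opposite strand, which leaves 156 bases of its own. Mt1 and Mt3 share 0 exonic bases with other genes. Gm45774 itself had 21, 13 and 21 counts in trained replicates 1, 2 and 3 and 30, 8 and 14 in the untrained ones, lowest in the library where Mt2 was lowest. Whether reads were counted by strand, and whether reads in shared bases were dropped, is not given in the sources used here, and the part of this overlap in the Mt2 counts was not tested. Overlap was smaller elsewhere: 34.6% of the exonic bases of Ftl1, 6.33% for Slc11a2 and 1.13% for Cp, whose span crosses the gene Hps3, and 0% for the other members.

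**Figure D4:**
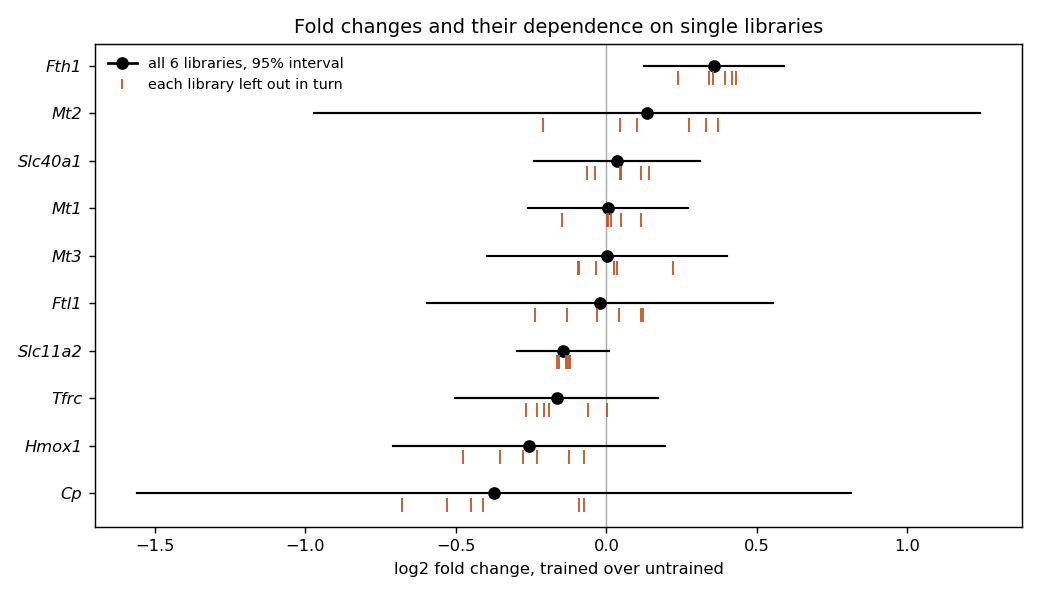
Log2 fold change (trained over untrained) of each member from the edgeR fit on all 6 libraries with its 95% interval (black), and the values with each library left out in turn (orange ticks). The interval of Fth1 lies above 0 before adjustment over all genes, those of the other 9 cross 0, and the ticks of Cp spread from -0.68 to -0.073.

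By the table's gene length, the members spanned more than 3 orders of magnitude per length. In CPM per kilobase of the table's gene length, averaged over the 6 libraries, Fth1 stood at 7160, rank 3 of 14757 protein-coding genes tested, and Mt1 at 759, rank 18. Ftl1 at 217 and Mt3 at 215 came next, with ranges over the libraries that overlapped (171 to 280 and 184 to 276). Mt2 at 24.0 and Tfrc at 21.5 overlapped likewise, as did Hmox1 at 9.13 and Slc11a2 at 8.12. Cp at 4.48 overlapped Hmox1 and Slc40a1 in single libraries, and Slc40a1 was lowest at 1.92. The ranks of Ftl1 and Mt2 carry the counting limits given above. The table's length for Mt1, 1246 bases, is its whole span including introns, which lowers its value per length. The table's length for Fth1, 866 bases, is shorter than its longest coding transcript in GENCODE M21 (1494 bases) and than all its annotated exons together (3469 bases), so that its value per length and its rank hold for the table's length only. For Slc40a1 (9000 bases), Cp (9566) and Mt3 (1066) it is longer than the longest coding transcript (3370, 4564 and 536 bases). The order of the members per length therefore also holds for the table's length only.

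Of 35 other genes of iron and heme handling 31 were tested, and 0 passed in edgeR, DESeq2 or limma-voom. At an unadjusted edgeR p below 0.05, 1 was higher and 5 lower, and the median log2 fold change was -0.062, against -0.0080 for all genes. Over all genes tested, 4.47% were higher and 5.55% lower at that p, and the groups did not overlap in 16.8%. The metal importers Slc39a8 and Slc39a14, which carry zinc, iron and manganese, had log2 fold changes of -0.39 ± 0.15 and -0.23 ± 0.09 (SE, edgeR adjusted p = 0.426 for both). Slc39a8 was at 8.48, 9.63 and 7.70 CPM in the trained and 12.6, 11.3 and 9.78 CPM in the untrained replicates, with no overlap. Pcbp1, a chaperone that delivers iron to ferritin, was at 0.17 ± 0.07 (edgeR adjusted p = 0.433), with 190 to 200 CPM in trained and 164 to 179 CPM in untrained libraries.

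Several regulators and partners of the members are named for their role, after their values had been seen. Ireb2, iron regulatory protein 2, which binds the hairpins printed above, was at 60.1, 63.4 and 57.1 CPM in the trained and 64.9, 69.1 and 68.0 CPM in the untrained replicates. Its groups did not overlap, as in 16.8% of all genes tested, and its log2 fold change was -0.16 ± 0.07 (edgeR adjusted p = 0.485). Aco1, iron regulatory protein 1, was at 0.019 ± 0.08 (edgeR adjusted p = 0.959). Trf, transferrin, the ligand of Tfrc made by oligodendrocytes in the central nervous system, was at -0.023 ± 0.14 (edgeR adjusted p = 0.976), with 75.8 to 110 CPM in trained and 82.5 to 104 CPM in untrained libraries. Ncoa4, the cargo receptor that takes ferritin to lysosomes, was at -0.098 ± 0.07 (edgeR adjusted p = 0.687). Hamp, hepcidin, the hormone that removes ferroportin from the membrane, had a count in 1 of the 6 libraries only, at 0.0621 CPM, below the floor.

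Among 27 zinc and copper genes 26 were tested and 0 passed in edgeR, DESeq2 or limma-voom, with 2 higher and 2 lower at an unadjusted edgeR p below 0.05 and a median log2 fold change of -0.058. The shares over all genes tested were 4.47% higher and 5.55% lower, with 16.8% free of overlap. Atp7a, the copper-exporting ATPase, was at 5.58, 5.56 and 5.83 CPM in the trained and 9.61, 6.55 and 8.18 CPM in the untrained replicates, with no overlap (log2 fold change -0.52 ± 0.18, edgeR adjusted p = 0.363). Cox17, a copper chaperone of cytochrome c oxidase, was at 0.60 ± 0.27 (edgeR adjusted p = 0.489) at only 2.04 to 5.28 CPM. Slc30a3, which loads zinc into synaptic vesicles, was at 0.29 ± 0.10 (edgeR adjusted p = 0.380) with overlapping groups. Mtf1, the zinc sensor of the metallothionein promoters, was at -0.19 ± 0.10 (edgeR adjusted p = 0.549).

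Of 15 genes of the NRF2 and BACH1 system, the main switch of Hmox1 and the ferritins, 0 passed in edgeR, DESeq2 or limma-voom, and 1 was lower at an unadjusted edgeR p below 0.05. That gene was Bach1, the heme-sensing repressor of Hmox1, at 21.6, 28.7 and 27.7 CPM in the trained and 34.4, 31.5 and 35.5 CPM in the untrained replicates. The groups did not overlap, and the log2 fold change was -0.38 ± 0.11 (edgeR adjusted p = 0.292). Over all genes tested, 5.55% were lower at that unadjusted p, and the groups did not overlap in 16.8%. Nfe2l2, which encodes NRF2, was at -0.051 ± 0.10 (edgeR adjusted p = 0.905). Keap1, which marks NRF2 for degradation, was at 0.12 ± 0.07 (edgeR adjusted p = 0.613), and Gclc, of glutathione synthesis, at -0.13 ± 0.07 (edgeR adjusted p = 0.552).

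Ferroptosis is a cell death driven by iron-dependent lipid peroxidation. Of 14 genes on that list 13 were tested, 0 passed in edgeR, DESeq2 or limma-voom, and 0 had an unadjusted edgeR p below 0.05, with a median log2 fold change of 0.054. The smallest p-values belonged to Vdac3, a mitochondrial outer membrane channel, at 0.11 ± 0.07 (edgeR adjusted p = 0.622), Trp53 at 0.19 ± 0.12 (0.634) and Cisd1, an iron-sulfur protein of that membrane, at 0.11 ± 0.08 (0.660).

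Glucocorticoids induce Mt1 and Mt2, and the glucocorticoid response list is given beside them. All 10 of its genes had negative log2 fold changes, with a median of -0.30, 1 passed in edgeR (Zbtb16, adjusted p = 0.00141), 8 were lower at an unadjusted p below 0.05, DESeq2 called 4 and limma-voom 2. This list was chosen with those values known. Among all genes tested, 5.55% were lower at an unadjusted edgeR p below 0.05. The log2 fold changes of Mt1 and Mt2 were 0.0048 ± 0.12 and 0.14 ± 0.43, and their difference from the list was not tested. Klf9, a glucocorticoid-induced transcription factor gene, was at -0.33 ± 0.07 (edgeR adjusted p = 0.160), and Nr3c1, the glucocorticoid receptor, at -0.28 ± 0.07 (edgeR adjusted p = 0.218).

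**Figure D5:**
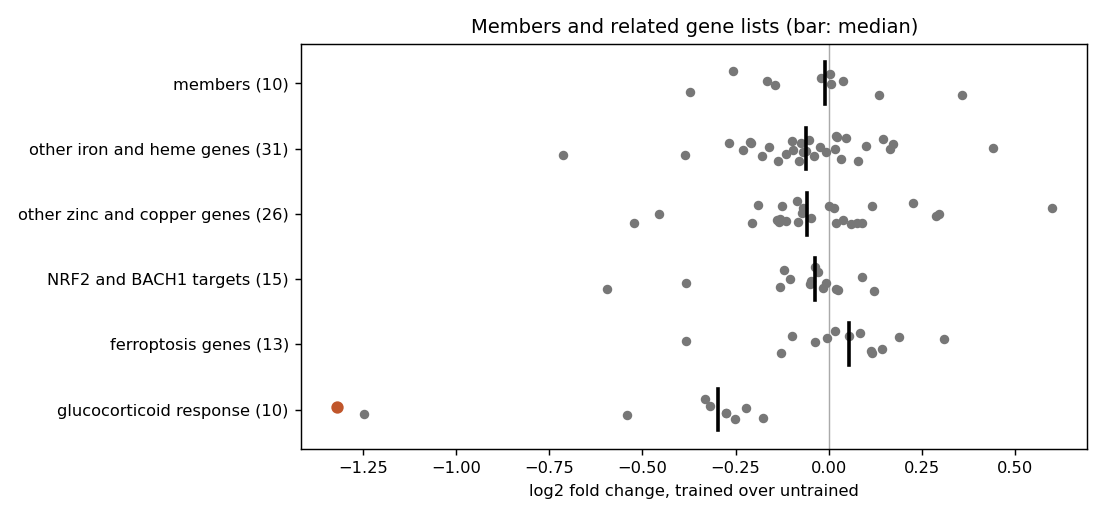
Log2 fold changes (trained over untrained) of the 10 members and of the tested genes of 5 related lists, 1 point per gene, with the list's median as a bar and the number of genes in brackets. Orange marks a gene past the edgeR test over all genes, which is Zbtb16 alone. The medians lie between -0.062 and 0.054 except that of the glucocorticoid list, at -0.30.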

How the data were processed

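The measurements are raw read counts, deposited by the authors for each Ensembl gene with its symbol, position, length and biotype, from 150 bp paired-end reads per the labels' protocols. Bowtie 0.12.2 is listed in the submitters' processing notes beside the builds mm8 and mm9. Which counter and annotation release were used, and whether strand was, is not stated in the sources used here. Gene positions are the table's: 54409 of 54532 gene IDs were found in GENCODE M21 (GRCm38), 98.3% of them with the same ends, as were 9 of the 10 members (not Fth1). The gene positions thus follow GRCm38, in conflict with the listed builds mm8 and mm9.

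The test was a robust quasi-likelihood fit in edgeR 4.0.16 (R 4.3.3) with group as the only term, after filterByExpr and TMM scaling, over 16909 genes, with Benjamini-Hochberg adjustment. An SE is the log2 fold change divided by the square root of F, and 95% intervals use the fit's degrees of freedom. The step was run on simulated data with changes larger than those of the members. How well it finds changes of the members' size was therefore not tested. Alternatives were RLE, upper-quartile and total-count scaling, DESeq2 1.42.0, limma-voom (limma 3.58.1), other filters, a replicate block and leaving out each library. Named genes are all members, their relatives, copies and overlapping genes, the 3 smallest p-values of each related list, and regulators named for their role. From the marker lists, Mbp and Hba-a1 were named as genes whose groups did not overlap, and Slc4a1 for its unadjusted p. Members and lists were chosen with earlier results of these data known.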

Additional observations from a re-analysis of the deposited data

How the results depend on the processing

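Of the members' log2 fold changes under 14 alternatives each (140 in all), 124 kept their direction and their side of the threshold, 14 turned sign (in Mt1, Mt2, Mt3, Ftl1, Slc40a1 and Tfrc), and 2, both of Fth1, came to pass. The number of members called was 1 (Fth1) with no filter on low counts and 1 (Fth1) in DESeq2, and 0 elsewhere. The number of genes called, 10 in the fit reported, was 276 with no filter, 92 in DESeq2, 5 with the replicate block and 4 to 221 when a library was left out (4 without trained replicate 2, 21 and 221 when trained replicate 1 or 3 was left out), and the cause was not tested. Outside the left-out libraries, Ftl1 turned to 0.0061 with upper-quartile scaling, and Mt1 to -0.014 with the replicate block and -0.011 in limma-voom. With a library left out, Mt1 ran from -0.15 to 0.12, Mt2 from -0.21 to 0.37, Mt3 from -0.096 to 0.22, Ftl1 from -0.24 to 0.12, Slc40a1 from -0.065 to 0.14 and Tfrc from -0.27 to 0.0020. The log2 ratio difference of Mt1 to Mt2 ran from -0.55 to 0.22 and that of Mt3 to Mt1 plus Mt2 from -0.061 to 0.23. Libraries of the same number were not treated as pairs in the fit reported, since the sources used here do not say whether the numbers mark pairs. Their deviations from the group means correlated across genes at -0.18, -0.091 and -0.13. With 3 libraries per group these values cannot decide whether the libraries were paired. Of the members, Mt2, Hmox1 and Slc40a1 had the fewest counts (102 to 448 per library) and so the largest counting error.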
